A study of Rattus norvegicus with 83 samples.

Results

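Rat offspring exposed through the mother to the upper or the lower dose of a thyroid peroxidase inhibitor were compared at gestational day 21, just before birth. The comparison held the 24 libraries of the 4 dosed groups of that stage, out of 83 libraries in the series, chosen by the stage, compound and dose in their labels. The lower dose arm had 6 libraries of methimazole at 8 mg/kg per day (MMI8) and 6 of amitrole at 25 mg/kg per day (Ami25). The upper dose arm had 6 libraries of methimazole at 16 mg/kg per day (MMI16) and 6 of amitrole at 50 mg/kg per day (Ami50). All came from offspring of time-mated Sprague-Dawley dams (Crl:CD(SD)) gavaged once daily from gestational day 7, and 6 libraries from dams given only corn oil served as the background level. Litter and animal were not given for any library, so a p-value measures the spread between libraries, which may share a litter. The question was whether gene expression differed between the doses in a way common to both compounds, so compound entered the fit as a block.

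Methimazole and amitrole both block thyroid peroxidase, which attaches iodine to thyroglobulin and couples its tyrosines into thyroid hormone. The hormone acts through the nuclear receptors Thra and Thrb, enters cells through membrane transporters, and is activated or inactivated by the deiodinases. Amitrole is also a long-known inhibitor of catalase, the peroxisomal enzyme that removes hydrogen peroxide. Before birth the fetus makes its own thyroid hormone only late in gestation and depends on the mother for the rest.

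The tissue label, testis, did not match the transcripts at this stage. Of 13 testis marker genes, counted without Sox9 and Inha because the adrenal also expresses them, all 24 libraries together held 159 counts of 22468638, and 120 of those were Dhh. The 7 defining genes of the adrenal cortex, the steroid-producing outer part of the adrenal gland, instead summed to 26427 to 45288 CPM (counts scaled to the library total) in every library. The 6 genes of the adrenal medulla, the catecholamine-producing core, summed to 781 to 1615 CPM. Adrenal genes are therefore described first among the tissues below, and the libraries are called by their dose group. In bulk RNA, fewer cells of a type and less RNA per cell cannot be told apart.

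Total counts ran from 495369 to 1526341 per library, with a median of 867002. The mean total was 929231 ± 311065 (SD) at the lower dose and 943156 ± 273818 (SD) at the upper dose. Neither these totals nor 7 other measures of the libraries differed between the doses, among them globin share, summed Y-linked level and distance from the group mean (exact permutation tests within compound, lowest adjusted p = 0.855). In 7 of the 24 libraries Alb, the liver's albumin, was at 200 CPM or more: 2 of MMI8, 2 of MMI16, 1 of Ami25 and 2 of Ami50, beside 3 of the 6 vehicle libraries. These 7 held 4055 to 37425 CPM of 20 liver genes, against 235 to 507 CPM in the other 17. They occupied the high end of the first principal component, which took up 21.3% of the variance, at scores of 6.19 to 41.3 against at most 3.41 in the others. A second set of 7 libraries stood apart on the second component (17.7% of the variance), with scores above 15 and totals of at least 1082449. MMI8 library 45, with the highest total (1526341), lay outside that set at a score of -1.68. The set was uneven by dose: MMI8 libraries 46 and 69, MMI16 libraries 49, 50 and 71, Ami50 libraries 55 and 56, and none of Ami25. Upper and lower dose libraries overlapped on both axes.

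**Figure D1:**
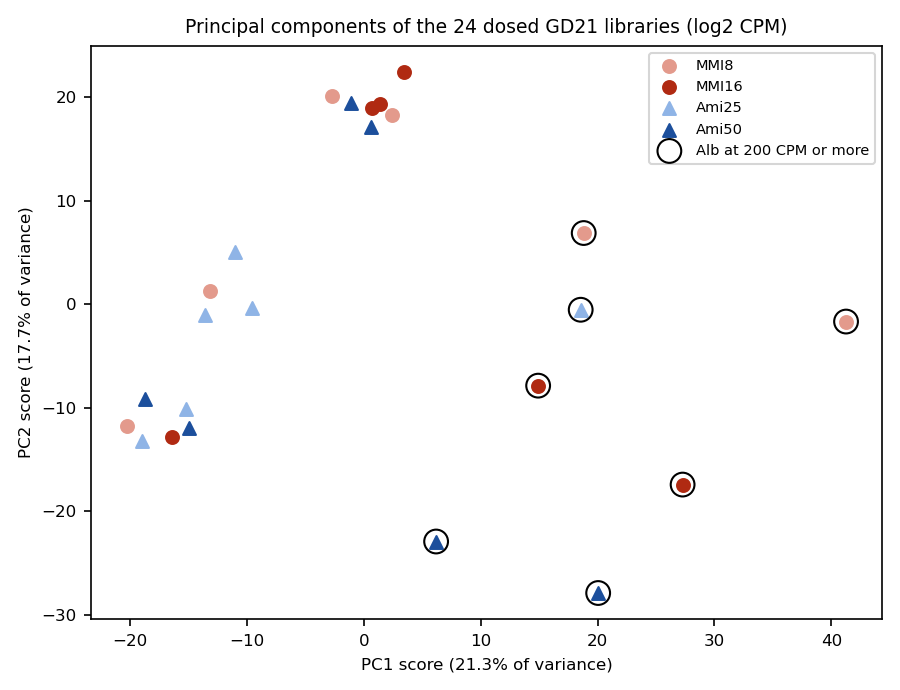
Principal components of log2 CPM in the 24 dosed libraries, with the score on PC1 across and on PC2 up. Circles are methimazole, triangles amitrole, pale symbols the lower and dark symbols the upper dose, and the 7 ringed libraries with Alb at 200 CPM or more lie at PC1 scores of 6.19 to 41.3, from both doses.

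No gene was called between the doses. Of 5763 genes tested with compound as a block, edgeR's quasi-likelihood test with Benjamini-Hochberg adjustment called 0 (0%), and the lowest adjusted p was 0.760. At an unadjusted p under 0.05 there were 289 genes, 5.01% of those tested, of which 153 (2.65%) were higher and 136 (2.36%) lower at the upper dose. DESeq2 also called 0, with 281 genes at an unadjusted p under 0.05. The dose difference was above 0 for 2957 genes and its median over all genes was 0.00 on the log2 scale. The middle of the distribution was narrow, with 5% of genes below -0.26 and 5% above 0.33. No gene had upper and lower dose libraries that did not overlap in CPM (0 of 5763, 0%).

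The intervals around these differences show how precisely each gene was measured. They are not adjusted for the number of genes tested, so a difference larger than their width could still go uncalled. The 95% interval lay within a 2-fold change in either direction for 5559 genes (96.5%) and within 1.5-fold for 4304 genes (74.7%). Its median width to either side was 0.32 on the log2 scale, or 1.25-fold. Among the 748 genes at a mean of 200 CPM or more, to which Cyp11a1, Cyp21a1, Hsd3b1 and Star belong, it was 0.17, and 95.2% of the intervals lay within 1.5-fold. Among the 1854 genes under 20 CPM it was 0.43, and 47.0% of the intervals lay within 1.5-fold. Genes too low for the test, Thra and Thrb among them, have no interval at all.

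Each compound alone gave the same count. Between MMI16 and MMI8 the number called by edgeR was 0 (0%), and the lowest adjusted p was 0.444. An unadjusted p under 0.05 was found for 343 genes (5.95%), 210 higher (3.64%) and 133 lower (2.31%). Between Ami50 and Ami25 the number was 0 (0%) as well, and the lowest adjusted p was 1.00. Here 190 genes (3.30%) had an unadjusted p under 0.05, 102 higher (1.77%) and 88 lower (1.53%). DESeq2 called 0 in both, with 314 and 164 genes at an unadjusted p under 0.05. The 2 dose contrasts share no library. Their log2 differences had the same sign in 2898 of 5763 genes (50.3%), and across genes, which are not independent replicates, Pearson's r was -0.22 and Spearman's rho 0.01. Of the 22 genes with an unadjusted p under 0.05 in both compounds, 8 had the same sign and 14 the opposite sign. The library numbers fall into 2 series, 41 to 56 and 61 to 90, split 2 to 4 in MMI8 and Ami50 and 4 to 2 in MMI16 and Ami25, so that series ran opposite to dose in the 2 compounds. With series as a term, a setting chosen after seeing the data, 2734 genes (47.4%) had the same sign, r was -0.27 and rho -0.06. Of 24 genes then at an unadjusted p under 0.05 in both, 8 had the same and 16 the opposite sign.

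**Figure D2:**
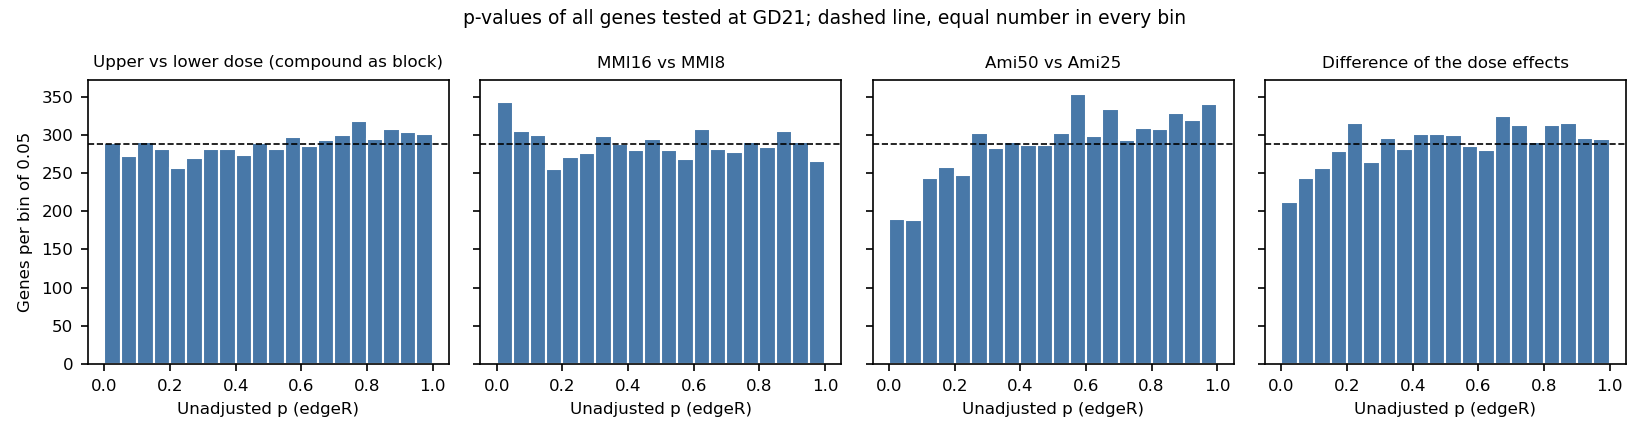
Histograms of the unadjusted edgeR p-values of the 5763 genes in bins of 0.05, for the blocked comparison, for each compound and for the difference between the compounds. The dashed line is an equal number of genes in every bin; the lowest bin holds 289, 343, 190 and 212 genes.

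The genes nearest to a common difference are given with their values because they show the size of what was seen, and none of them was called. They are the 10 higher and 10 lower genes of lowest p among genes at a mean of 20 CPM or more whose dose difference had the same sign in both compounds, so the shared sign is part of the choice. Their adjusted p ran from 0.906 to 0.958 (edgeR), and their differences were -0.51 to -0.26 and 0.37 to 0.65 on the log2 scale. Where upper dose libraries above or below the lower dose mean are counted, here and further on, the count comes from the values that chose the gene. It is no separate support.

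Igf2r encodes the receptor that clears Igf2 and carries lysosomal enzymes. The lower dose libraries ran from 14.5 CPM over a median of 24.7 to 46.4, the upper dose libraries from 29.7 over 40.4 to 103, and the vehicle libraries from 21.5 to 72.6. The ranges overlapped, and all 12 upper dose libraries lay above the lower dose mean. The difference was 0.65 ± 0.19 (SE; 95% interval 0.27 to 1.04; p = 0.00169, adjusted p = 0.906). It was 1.01 in methimazole and 0.28 in amitrole. The highest value, 103 CPM, was in MMI16 library 47, without which the difference was 0.50, and without the 7 libraries of high Alb it was 0.48.

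Grb2, an adaptor that links receptor tyrosine kinases to Ras, and Gnai2, an inhibitory G protein subunit, were also among the higher genes. Gnai2 ranged from 32.3 CPM over 56.9 to 78.6 at the lower dose and from 58.8 over 70.8 to 157 at the upper dose. The top value was again library 47, and the vehicle libraries, at 50.7 to 97.1 CPM, overlapped both arms. The difference was 0.43 in Gnai2 and 0.46 in Grb2, of similar size in methimazole (0.42 and 0.51) and amitrole (0.45 and 0.42). Arf5, a small GTPase of Golgi traffic, was at 0.44, Fkbp9, a prolyl isomerase of the endoplasmic reticulum, at 0.51, and Trim28, a corepressor that silences retroelements, at 0.37 (0.23 without the libraries of high Alb). Vac14 (0.44), Myom3 (0.49), Cops6 (0.56) and Pum2 (0.42, or 0.27 without the libraries of high Alb) made up the rest. Cops6, a subunit of the COP9 signalosome, was the only 1 of the 20 whose sign turned under any alternative: it was -0.05 in the libraries numbered 61 to 90.

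The lower genes were led by C2, a complement component. It ranged from 74.3 CPM over 89.2 to 108 at the lower dose, from 61.2 over 71.8 to 92.5 at the upper dose and from 63.9 to 105 in vehicle libraries, which covered most of both arms. The difference was -0.29 ± 0.08 (SE; p = 0.00134, adjusted p = 0.906), with 1 of 12 upper dose libraries above the lower dose mean. Myd88, the adaptor of Toll-like and interleukin-1 receptors, was at -0.51, and 0 of 12 upper dose libraries lay above the lower dose mean. In Myd88 the lower dose arm (19.6 to 42.4 CPM) reached above the vehicle libraries (14.1 to 22.2 CPM), and the upper dose arm (11.1 to 26.8 CPM) covered the vehicle range.

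Folr1, a folate receptor and the most abundant gene of the 20, ran from 775 over 976 to 1360 CPM at the lower dose and from 468 over 833 to 1040 at the upper dose. Its difference was -0.34, and the vehicle libraries, at 878 to 1059 CPM, lay within the range of the lower arm. Coq8a, which acts in coenzyme Q synthesis, was at -0.47, Sumf2, a relative of the sulfatase-modifying enzyme, at -0.29, and Tspan4, a tetraspanin, at -0.37. Pnmt, the enzyme that turns noradrenaline into adrenaline, is described with the medulla below. Zfp518a (-0.35), Tmem109 (-0.30) and Tmem192 (-0.46) completed the set.

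**Figure D3:**
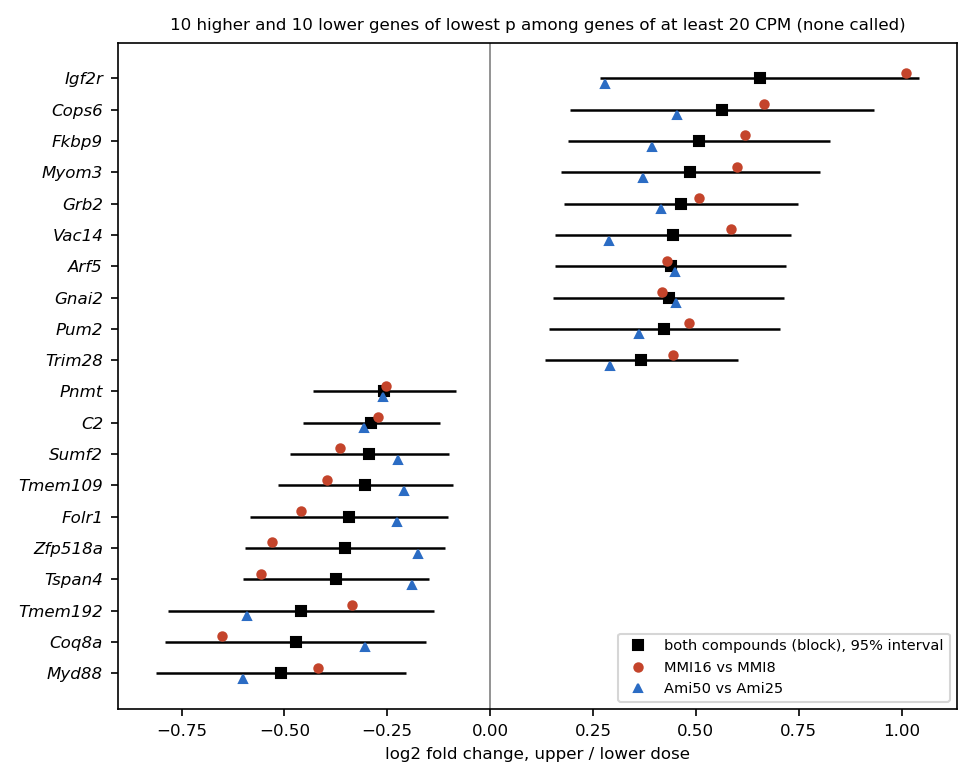
Log2 difference, upper over lower dose, of the 10 higher and 10 lower genes of lowest p at a mean of 20 CPM or more. Squares and bars are the blocked estimate with its 95% interval, circles methimazole alone and triangles amitrole alone; the blocked estimates lie between -0.51 and 0.65 and none was called.

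Genes of lower level reached lower p-values. Reep2, named after its values were seen because it had the lowest p of all genes (0.000187, adjusted p = 0.760, edgeR), was at a mean of 13.9 CPM and differed by 0.83. Timp2, an inhibitor of matrix metalloproteinases, ran from 0 over 6.17 to 10.7 CPM at the lower dose and from 6.59 over 13.4 to 23.9 CPM at the upper dose. All 12 upper dose libraries lay above the lower dose mean, although vehicle libraries, at 2.58 to 16.7 CPM, covered much of both arms. Its difference was 0.98 ± 0.24 (SE; p = 0.000264, adjusted p = 0.760), at 1.03 in methimazole and 0.91 in amitrole, and 0.91 without library 47.

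Most of the thyroid hormone machinery was too low to test. Of 19 genes for receptors, corepressors, transporters and deiodinases, 6 were tested and 0 had an unadjusted p under 0.05. The receptor Thra held 85 counts in all lower and 87 in all upper dose libraries, and Thrb held 7 and 5. The deiodinases Dio1 (11 and 7 counts) and Dio3 (2 and 1), the transporter Slc16a10 (23 and 23), and the receptor corepressor Hr (8 and 3) were as low. Of the tested members, Slc7a8 and Slc3a2, the light and heavy chain of an amino acid and iodothyronine transporter, were at 0.53 (SE 0.30, and 0.22 without the libraries of high Alb) and 0.21 (SE 0.13), and Ncor1, a corepressor of unliganded receptors, was at 0.21 (SE 0.16). The median of the 6 was 0.21, against 0.00 over all genes.

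Of 20 genes known to respond to thyroid hormone in other tissues, 8 were tested, 0 were called, and 3 had an unadjusted p under 0.05, all higher, beside 2.65% of all genes. Me1, the NADPH-producing malic enzyme and a textbook target in liver, ran from 17.7 over 33.9 to 97.9 CPM at the lower dose and from 24.9 over 53.4 to 153 CPM at the upper dose. Vehicle libraries, at 42.2 to 105 CPM, lay within the range of the upper arm, and the arms overlapped broadly. The difference was 0.80 ± 0.27 (SE; p = 0.00777, adjusted p = 0.958), at 0.64 in methimazole and 0.98 in amitrole. Atp2a2, the calcium pump of the sarcoplasmic reticulum, was at 0.39, mostly in amitrole (0.61, against 0.19 in methimazole), and Dbp, a clock output transcription factor, at 0.37. Klf9, a direct target of the receptor in brain, was at 0.16 (95% interval -0.31 to 0.64). The median of the 8 was 0.21, and Itih3, at -0.22, was the only member below 0. Without the libraries of high Alb 7 were tested, 2 had such a p and the median was 0.35.

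No gene of the adrenal cortex passed even the unadjusted threshold, and the abundant ones had narrow intervals. Of 20 genes of cortex identity and steroid synthesis, 15 were tested, 0 had an unadjusted p under 0.05, 8 lay above 0 and the median was 0.03. Cyp11a1, which makes pregnenolone from cholesterol, ran from 9974 over 14833 to 20972 CPM at the lower dose and from 11616 over 12775 to 20112 at the upper dose, with vehicle at 10858 to 16367 CPM. The ranges overlapped broadly, but the 20112 CPM were in MMI16 library 48, whose group otherwise reached 13181 CPM at most. The difference was -0.14 (95% interval -0.35 to 0.08). Without the libraries of high Alb it was -0.23 (p = 0.070, edgeR), while the list median was 0.02. Cyp21a1, the 21-hydroxylase, was at -0.04 (-0.21 to 0.14), Hsd3b1 at -0.11 (-0.28 to 0.07), and Star, which carries cholesterol into mitochondria, at -0.08 (-0.30 to 0.14). Cyp11b1, the last enzyme of glucocorticoid synthesis, was at -0.12 (-0.44 to 0.19), Fdxr, which feeds electrons to the mitochondrial P450 enzymes, at -0.11, and Mc2r, the ACTH receptor, at 0.17 (-0.27 to 0.60).

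Genes of cholesterol synthesis and uptake, which supply the cortex, lay on 1 side without any passing even the unadjusted threshold. Of 24 genes 19 were tested, 18 lay above 0 and the median was 0.18, against 0.00 for all genes, of which 51.3% lay above 0. Cyp51, the lanosterol demethylase, ran from 15.5 over 21.6 to 45.7 CPM at the lower dose and from 16.9 over 30.9 to 92.5 at the upper dose. Its difference was 0.54 (95% interval -0.07 to 1.15), at 0.89 in methimazole and 0.16 in amitrole. Hmgcs1, an early enzyme of the pathway, was at 0.29 (-0.10 to 0.68). These genes are regulated together and are not independent of each other. The median was 0.14 without the libraries of high Alb and 0.14 without library 47, with 18 of 19 and 19 of 20 members above 0.

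Most genes of the adrenal medulla lay below 0. Of 15 genes 11 were tested, 0 were called, 4 (Pnmt, Slc18a1, Scg2 and Dbh) had an unadjusted p under 0.05 in the lower direction, beside 2.36% of all genes, and the median was -0.23. Pnmt ran from 545 over 766 to 942 CPM at the lower dose, from 476 over 667 to 746 CPM at the upper dose and from 538 to 844 CPM in vehicle libraries. The arms overlapped, and 0 of 12 upper dose libraries lay above the lower dose mean. The difference was -0.26 ± 0.08 (SE, p = 0.00511, adjusted p = 0.950, edgeR), the same in methimazole (-0.25) and amitrole (-0.26). Slc18a1, which loads catecholamines into vesicles, was at -0.47 (-0.21 in methimazole, -0.74 in amitrole), and Scg2, a secretogranin of the same vesicles, at -0.29. Th, which starts catecholamine synthesis, was at -0.25 (95% interval -0.58 to 0.08). Without the libraries of high Alb the median was -0.07, 2 members had such a p, and Th was at -0.02 and Scg2 at -0.07. The summed level of the list was 1400 to 2029 CPM at the lower and 1014 to 1925 CPM at the upper dose.

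Most extracellular matrix genes lay above 0. Of 36 genes 25 were tested, 0 were called, and 6 (Col5a2, Col3a1, Igfbp7, Col4a1, Postn and Col1a1) had an unadjusted p under 0.05, all higher, beside 2.65% of all genes. In all, 22 of 25 lay above 0 and the median was 0.25. Col3a1, a fibrillar collagen, ran from 155 over 265 to 470 CPM at the lower dose, from 179 over 369 to 918 CPM at the upper dose and from 144 to 607 CPM in vehicle libraries. The arms overlapped over most of their range, and the 918 CPM were in library 47. The difference was 0.56 ± 0.21 (SE; p = 0.0166, adjusted p = 0.958), Col1a1 was at 0.48 and Col5a2 at 0.60. Without library 47 the count of members at an unadjusted p under 0.05 was 2 and the median 0.16, and without the libraries of high Alb the count was 1 and the median 0.24.

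Other genes of the supporting tissue were mixed. Pcolce, which enhances procollagen processing, went the other way from the collagens, at -0.23 (SE 0.09; p = 0.0176), and Vim, the intermediate filament of mesenchyme, was at 0.33 (SE 0.14), or 0.23 without library 47. Endothelial genes had a median of 0.01 with 0 of 11 at an unadjusted p under 0.05; Esam, an adhesion molecule of endothelial cells, was at -0.19. Of 18 tested genes of macrophages and other leukocytes, 14 lay above 0 with a median of 0.19, or 0.10 without the libraries of high Alb. By compound the median was 0.44 in methimazole and 0.02 in amitrole. Lgals3, a galectin of macrophages, ran from 1.21 over 5.91 to 13.5 CPM at the lower dose and from 7.41 over 11.3 to 23.9 CPM at the upper dose. It had the list's only unadjusted p under 0.05 (difference 0.80 ± 0.28, SE; p = 0.00766, adjusted p = 0.958). Mrc1, the mannose receptor of resident macrophages, was at 0.36 (SE 0.23), but at 0.04 without the libraries of high Alb.

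**Figure D4:**
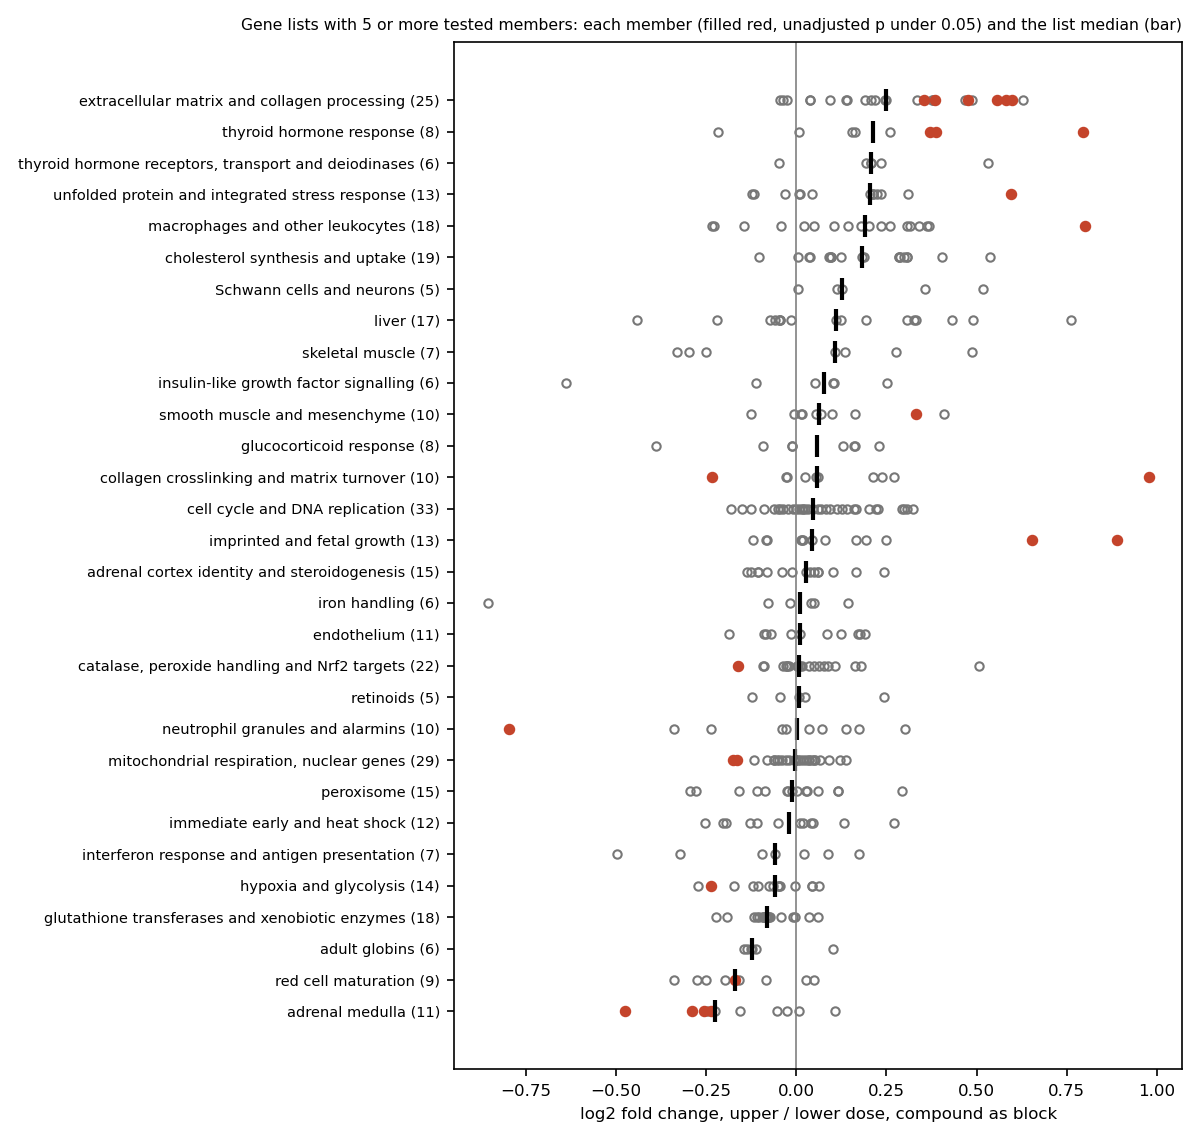
Log2 difference, upper over lower dose with compound as a block, of each tested member of the lists with 5 or more tested genes (number in brackets). Open circles are members, filled red circles those with an unadjusted p under 0.05 and bars the list medians, which run from -0.23 for the adrenal medulla to 0.25 for extracellular matrix with all 24 libraries; no member was called.

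Genes tied to the second known action of amitrole lay close to 0. Cat, catalase itself, ran from 110 over 147 to 184 CPM at the lower dose, from 103 over 132 to 189 CPM at the upper dose and from 102 to 165 CPM in vehicle libraries. The 3 ranges were alike, and the difference was -0.09 (95% interval -0.29 to 0.11), at -0.13 in amitrole and -0.05 in methimazole. Of 22 tested genes of peroxide handling and the Nrf2 response, 1 had an unadjusted p under 0.05: Prdx3, the mitochondrial peroxiredoxin, at -0.16 (SE 0.07). It had no such p without library 47 (-0.12, p = 0.089) or without the libraries of high Alb (-0.09, p = 0.29), and the count was then 0. Gclc, which starts glutathione synthesis, was at 0.51 (95% interval -0.03 to 1.05), and 0.24 without the libraries of high Alb. It ran from 3.91 to 13.2 CPM in MMI8 and from 7.14 to 20.9 CPM in MMI16. In amitrole the doses were alike, at 5.81 to 30.3 CPM in Ami25 and 3.10 to 24.4 CPM in Ami50. The 15 tested peroxisomal genes had a median of -0.01. Of 18 glutathione transferases and related enzymes, 16 lay below 0 but within a narrow band, with a median of -0.08; Gstp1 was at -0.09 (-0.20 to 0.02) and Gsta1 at -0.12 (-0.33 to 0.10).

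Blood genes did not separate the doses. The embryonic globin Hbe1 ran from 27.1 over 98.7 to 468 CPM at the lower dose and from 46.4 over 134 to 860 CPM at the upper dose. Its difference, 0.61, had an interval of -0.39 to 1.60, and the highest value was in Ami50 library 88. Embryonic globins made up 0.164% ± 0.156 (SD) of all globin counts at the lower dose and 0.237% ± 0.216 (SD) at the upper dose. The adult globin Hbb-b1 was at -0.15 (-0.40 to 0.11). Of 9 tested genes of red cell maturation, Bnip3l, which clears mitochondria from maturing red cells, had the only unadjusted p under 0.05, at -0.17 (SE 0.08). Without the libraries of high Alb 3 of 9 had one, and the median was -0.27 in place of -0.17. Lcn2, a neutrophil granule protein, was at -0.80 (SE 0.34), and at -0.65 (p = 0.145, edgeR) without the libraries of high Alb. Its level was low, at 3.91 to 16.4 CPM in MMI8 and 2.985 to 13.0 CPM in MMI16, which overlapped broadly. In amitrole it was 7.83 to 18.1 CPM in Ami25 and 0 to 10.8 CPM in Ami50. The median of its list was 0.00, but -0.12 without the libraries of high Alb and -0.10 without library 47.

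Growth-related genes gave 0 calls and 2 unadjusted p-values under 0.05 among 13 imprinted genes, Igf2r and H19. H19, the imprinted RNA that lies beside Igf2, ran from 63.0 over 96.4 to 273 CPM at the lower dose and from 57.1 over 139 to 1000 CPM at the upper dose. The top value, in library 47, was far above the next, and the difference fell from 0.89 (p = 0.0405) to 0.30 (p = 0.31) without that library. Igf2 was at -0.08 (SE 0.28), and Dlk1, a paternally expressed gene of adrenal progenitors, at 0.25 (SE 0.14). Library 47 was also the highest of its group for these 2 genes, and without it they were at -0.35 and 0.12. Igf1, the growth factor, varied widely within each arm (126 to 1936 CPM at the lower dose, 144 to 1892 CPM at the upper dose) and was at -0.64 (95% interval -1.52 to 0.25). Of 33 tested genes of the cell cycle, 0 had an unadjusted p under 0.05, and all 33 intervals lay within a 2-fold change. Mki67, the proliferation marker, was at 0.32, or 0.19 without library 47. Ccnb2, a mitotic cyclin, was at 0.20, or 0.08 without the libraries of high Alb, and the median of the list was 0.05.

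Stress and energy metabolism held few differences. Asns, the asparagine synthetase of the integrated stress response, was at 0.60 ± 0.23 (SE; p = 0.0157, adjusted p = 0.958), running from 17.7 over 26.0 to 62.8 CPM at the lower dose and from 19.4 over 41.1 to 105 CPM at the upper dose. Its difference was 0.09 in the libraries numbered 41 to 56 alone and 0.72 in those numbered 61 to 90 alone. The other 12 tested genes of that list had no unadjusted p under 0.05, and its median was 0.21, or 0.05 without the libraries of high Alb. Sdhb and Sdha, subunits of succinate dehydrogenase, were both lower at an unadjusted p under 0.05 (-0.16 and -0.17), among 29 tested genes of mitochondrial respiration with a median of 0.00. Without library 47 neither had such a p. Without all libraries of high Alb, Sdhb was at -0.24 (p = 0.0109, edgeR) and Sdha at -0.19 (p = 0.052, edgeR). Bnip3, a hypoxia target, was at -0.24 (p = 0.0499) and at -0.20 (p = 0.10) without library 47 (edgeR). Tsc22d3, a target of the glucocorticoid receptor, was at -0.39 (95% interval -1.04 to 0.26), and Jun, an immediate early gene, at -0.11.

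Genes of neighbouring organs were the least precisely measured. Alb ranged from 11.8 over 33.3 to 10976 CPM at the lower dose and from 14.5 over 38.0 to 4394 CPM at the upper dose, with a difference of -0.06 ± 1.46 (SE). Of 17 tested liver genes, 9 lay above 0, but 1 of 17 did without library 47. Of the 17, 0 had an interval within a 2-fold change, and the list median was -1.001 in methimazole and 1.64 in amitrole. The skeletal muscle genes Acta1 and Tnni2 were at 0.49 (SE 1.04) and -0.30 (SE 0.91), and that list's median was -1.60 in methimazole and 3.10 in amitrole. The 10 muscle genes summed to 50.3 to 1823 CPM in the 7 libraries of high Alb and to 10.9 to 433 CPM in the others. Liver and muscle genes enter the Pearson's r of -0.22 given above, and their part in it was not tested.

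**Figure D5:**
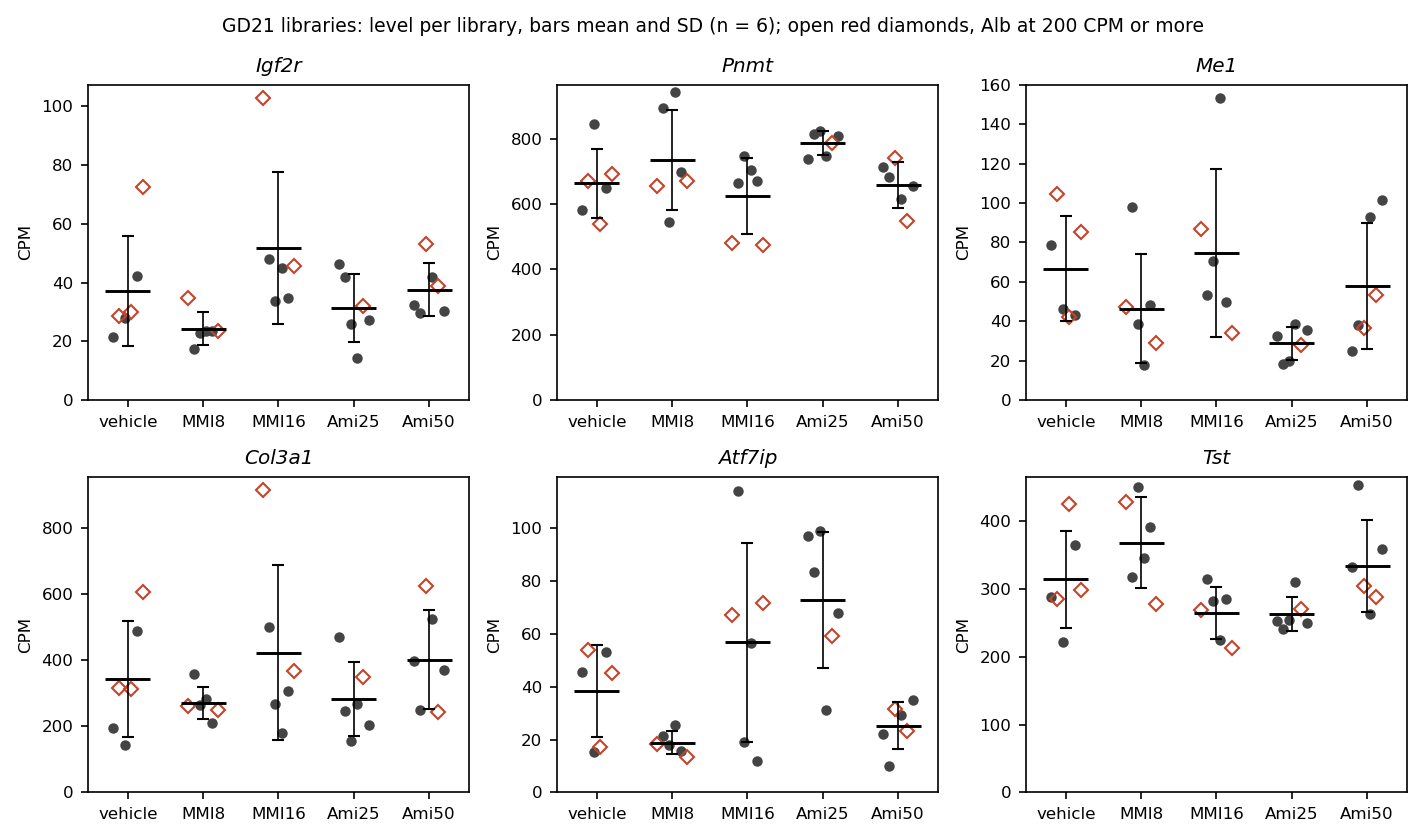
CPM in each of the 30 libraries of gestational day 21 by group (vehicle, MMI8, MMI16, Ami25, Ami50) for Igf2r, Pnmt, Me1, Col3a1, Atf7ip and Tst. Dots are libraries, open red diamonds those with Alb at 200 CPM or more, and bars the mean and SD of 6; Atf7ip is low in MMI8 (13.4 to 25.6 CPM) and Ami50 (9.88 to 35.1 CPM).

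The last comparison asked whether the dose difference itself differed between the compounds. By edgeR 0 of 5763 genes (0%) were called, and the lowest adjusted p was 0.0912. An unadjusted p under 0.05 was found for 212 genes (3.68%), with the difference more positive in amitrole for 105 (1.82%) and in methimazole for 107 (1.86%). DESeq2 called 2, Atf7ip and Tst. Atf7ip, a partner of the histone methyltransferase Setdb1, was lowest in MMI8 and Ami50. It ran from 13.4 over 18.2 to 25.6 CPM in MMI8 and from 11.9 over 61.8 to 114 CPM in MMI16. In amitrole it ran from 31.4 over 75.8 to 98.7 CPM in Ami25 and from 9.88 over 26.4 to 35.1 CPM in Ami50. The vehicle libraries, at 15.4 to 53.9 CPM, overlapped all 4 groups, and 4 of the 6 MMI16 libraries were above all MMI8 libraries. The dose difference was thus 1.52 in methimazole and -1.55 in amitrole.

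The 2 differences in Atf7ip were -3.07 ± 0.56 (SE) apart, with an adjusted p of 0.0912 by edgeR and 7.26e-05 by DESeq2. The low MMI16 libraries were 49 and 71, at 19.2 and 11.9 CPM, both in the set of 7 with high scores on the second principal component. MMI16 library 50, at 56.5 CPM, was in that set as well. Without library 49 the adjusted p by edgeR was 0.0151, without library 71 it was 0.00178, and without Ami25 library 54, at 31.4 CPM, it was 0.0313. Over all alternatives it ran from 7.26e-05 to 0.999, the highest without the libraries of high Alb, where the estimate was -2.88. The part of the second component in this result was not tested.

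Tst, the mitochondrial sulfurtransferase that detoxifies cyanide, had the opposite pattern at a smaller size. Its medians were 368 CPM in MMI8 and 275 CPM in MMI16, and 253 CPM in Ami25 and 318 CPM in Ami50, beside 293 CPM in vehicle. The difference was -0.50 in methimazole and 0.34 in amitrole, 0.85 ± 0.18 (SE) apart (adjusted p = 0.245 by edgeR, 0.0496 by DESeq2). Macir ran from 53.7 to 73.2 CPM in MMI8 and from 34.3 to 46.5 CPM in MMI16, and from 35.8 to 56.5 in Ami25 and from 40.3 to 84.5 in Ami50. Its 2 differences, -0.61 and 0.39, were 1.00 apart (adjusted p = 0.245, edgeR). Mrpl22, a mitochondrial ribosomal protein, was at 0.18 in methimazole and -0.33 in amitrole (adjusted p of the difference 0.316, edgeR).

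Within each compound the genes of lowest p are likewise given as not called. In methimazole Marcksl1, a regulator of actin, was at 0.81 and Tmem120a at 0.65, and Aldoc, a glycolytic aldolase, at -1.04. In amitrole these 3 were at -0.06, -0.26 and -0.03. In amitrole Etv1, a transcription factor, was at 0.73 and Pigp, of glycolipid anchor synthesis, at 0.50. Txnip, an inhibitor of thioredoxin that follows glucose supply, was at -0.56 in amitrole and -0.10 in methimazole. Whether these differences between the compounds are larger than the spread was tested over all genes above, and 0 of them were called.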

How the data were processed

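The 24 dosed libraries of gestational day 21 were made by BRB-seq, in which each sample's RNA receives a barcode at its 3′ end before pooled sequencing. The authors deposited whole-number counts for every gene symbol in every library. The submitters' processing notes name BWA 0.7.4.4 and the build rn6. How reads were counted (tool, annotation, strand, molecular barcodes) is not given in the sources, so counts of overlapping or near-identical genes (globins among them) are uncertain. Of 17483 symbols 15578 matched current RefSeq names and 1556 synonyms; no coordinates or sequences were used.

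Genes were kept by filterByExpr (minimum count 10), scaled by TMM factors and tested with edgeR 4.0.16 (robust quasi-likelihood fit, R 4.3.3), with compound as a block for the common difference and with 4 group means for each compound and for the difference between them. Calls needed an adjusted p (Benjamini-Hochberg, over all genes tested) under 0.05. CPM are counts over the library total. Library measures were compared with an exact permutation test (2-sided, 853776 assignments). At these totals a level of 1 CPM is about 1 count.

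Named genes were the 10 per direction of lowest p at a mean of at least 20 CPM with the same sign in both compounds, 3 per direction for each compound and for the difference between compounds, up to 3 per list, and a panel, of which 1 gene is not reported here. Other list members given by value, and Reep2, were named after their values were seen. The libraries, the 40 lists and the tests were chosen with earlier results of these data known. Alternatives were DESeq2 1.42.0, its size factors, limma 3.58.1 (trend and voom), edgeR's legacy fit, other filters, the library number series, other sets of libraries, and each library left out. No 2 libraries of a group were copies (60 pairs, lowest chi-square per degree of freedom 2.32).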

Additional observations from a re-analysis of the deposited data

Results flagged for a closer look

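Single libraries far from the other 5 of their group were looked for in 376 groups of values (87 named genes and 7 library measures), and 32 were found. Chance alone flags about 1 in 20 groups of independent, normally distributed values, and whether the CPM meet that was not tested. Of the 32, 21 were in libraries with Alb at 200 CPM or more. Alb, which defines that class, is itself among the flagged genes.

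MMI8 library 45 had the highest level of its group for the liver genes Alb (10976 CPM) and Tf (5064 CPM), the muscle genes Acta1 (579 CPM) and Tnni2 (118 CPM), and the imprinted genes H19 (273 CPM), Igf2 (365 CPM) and Igf2r (34.7 CPM). In the other 5 libraries Alb reached 1382 CPM at most. MMI16 library 47 was highest for H19 (999.9 CPM), Igf2 (463 CPM), Dlk1 (249 CPM) and Igf2r (103 CPM), for Igfbp7 (112 CPM) and Vim (451 CPM) of the supporting tissue, for Gnai2 (157 CPM) and Pum2 (82.1 CPM), and for the proliferation marker Mki67 (71.6 CPM). H19 in the other 5 MMI16 libraries was 57.1 to 169 CPM. Ami25 library 81 was highest for Alb (1843 CPM) and Tf (1130 CPM). Ami50 library 89 was highest for Alb (4394 CPM) and Tf (4940 CPM) and lay farthest from the mean of its group (a root mean square distance of 0.646 log2 units over genes). These 4 libraries all had Alb at 200 CPM or more.

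The other 11 were in libraries of low Alb. MMI16 library 48 was highest for Cyp11a1 (20112 CPM) and Tsc22d3 (98.2 CPM) and lowest for the globin Hbb-b1 (2570 CPM). Ami50 library 88 was highest for the embryonic globin Hbe1 (860 CPM), for the embryonic share of globin counts (0.878%) and for Atp2a2 (49.6 CPM). Ami25 library 51 was highest for Gclc (30.3 CPM) and Bnip3 (220 CPM), and Ami25 library 52 was lowest for Gstp1 (369 CPM). MMI8 library 67 was highest for Zfp518a (51.6 CPM) and MMI8 library 46 for Lgals3 (13.5 CPM).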

How the results depend on the processing

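The count of called genes was 0 in the blocked comparison under all 13 alternatives, in each compound alone under all 11, and in each of these 3 comparisons with every library left out in turn. For the difference between the compounds it was 0 under 9 of 10 alternatives and 2 with DESeq2; with each library left out it ranged from 0 to 1, and was 1 without MMI16 library 49, MMI16 library 71 or Ami25 library 54, the gene being Atf7ip. Its difference was -3.09 with DESeq2 (adjusted p 7.26e-05) and -3.26, -3.30 and -3.22 without these libraries (edgeR adjusted p 0.0151, 0.00178 and 0.0313), and that of Tst was 0.86 with DESeq2 (adjusted p 0.0496); these 5 values passed the threshold. The cause was not tested. Of 94 gene results, 59 had an unadjusted p under 0.05, and 57 of them kept their sign under every alternative. The exceptions were Cops6, at -0.047 in the libraries numbered 61 to 90 alone, and Pcolce, at 0.0033 in those numbered 41 to 56 alone. The 59 were set apart by their p in these same libraries, which every alternative reuses, so a kept sign is no separate support. Some sizes moved: Tmem192 was at -0.15 in the libraries numbered 41 to 56 and at -0.69 in those numbered 61 to 90. C2, in contrast, was at -0.29 and -0.26. Of the 35 results without such a p, 16 changed sign at least once. Of 33 list medians, 0 shifted by more than the SD of the list's mean level between libraries of a group. The settings were DESeq2's size factors, leaving out MMI16 library 47, and leaving out the libraries of high Alb. Within that spread some medians changed. Without MMI16 library 47 those of liver went from 0.11 to -0.30 and of Schwann cells and neurons from 0.13 to -0.0005. Without the libraries of high Alb that of the adrenal medulla went from -0.23 to -0.07. The order of the lists by median also changed. The agreement of the compounds with series as a term, the counts and medians without MMI16 library 47, and the counts without the libraries of high Alb, were chosen after seeing the data; the skeletal muscle list gave no value without the latter. No library lay under 0.5 of the median total, so that alternative was not run. No paired analysis was possible because the groups share no library number. Depth limits what can be read from genes under 20 CPM, whose median interval reached 1.35-fold to either side, and 11720 symbols were too low to test.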

Other observations

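Several smaller gene groups had 0 members with an unadjusted p under 0.05 between the doses over all 24 libraries (edgeR). Of 7 tested genes of the interferon response and antigen presentation, 3 lay above 0 and the median was -0.06; RT1-A2, a class I histocompatibility gene, was at -0.50 (95% interval -1.41 to 0.41), and Psmb8, an immunoproteasome subunit, at -0.32. The 5 tested genes of Schwann cells and neurons had a median of 0.13 and all lay above 0, but 2 of 5 did, with a median of -0.0005, without MMI16 library 47. They were led by S100b at 0.52 (SE 0.29), which was at 1.00 in methimazole and 0.01 in amitrole. Among 6 genes of iron handling the median was 0.01 (-0.08 without the libraries of high Alb), and Hamp, the iron hormone hepcidin, was at -0.86 (95% interval -2.33 to 0.62). The 5 retinoid genes had a median of 0.01 (0.10 without the libraries of high Alb) and the 12 immediate early and heat shock genes of -0.02 (0.04 without them). The 8 glucocorticoid response genes had a median of 0.06, with 4 above 0, and without library 47 a median of -0.04, with 2 above 0. The 4 fat genes had a median of 0.02, but of 0.27 without the libraries of high Alb, where 2 of 4 had an unadjusted p under 0.05, both higher. Of 12 genes of the adrenal capsule and its progenitors 3 were tested, among them Tcf21, a mesenchymal transcription factor, at -0.21 (-0.89 in methimazole and 0.53 in amitrole). None of the genes of kidney, of pancreas and gut, of germ cells or of lymphocytes was high enough to be tested.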
